A study of Homo sapiens with 10 samples.

Results

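The BET bromodomain inhibitor JQ1 was followed in the human cell line K562, derived from chronic myeloid leukaemia and erythroid in character, through 4 libraries of a metabolic labelling chase: 1 taken at 0 h, when the chase began, and 1 each after 2, 4 and 8 h in 1 µM JQ1. These are 4 of the 10 libraries of the study. All cells had first been grown for 12 h in 30 µM 4-thiouridine, in medium changed every 3 h, and were then washed into 3 mM uridine, so the 0 h library carries the thiouridine pulse but no inhibitor. A chase in DMSO, the vehicle, shares the 0 h library and has its own libraries at 2, 4 and 8 h; a further arm with AZ-5576, a CDK9 inhibitor at 1 µM, entered the statistical model only. The genes described are those with a mean labelled count of at least 20 over the 10 libraries, which are 8817 of the 59204 human genes in the tables. There were 125 genes with a mean between 20 and 21, just inside this limit, and 131 between 19 and 20, just outside it.

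BET proteins bind acetylated histones through their bromodomains and help to recruit P-TEFb, the kinase that releases paused RNA polymerase II. JQ1 occupies the bromodomain pocket and displaces these proteins from chromatin. Genes near strong enhancers, among them MYC and factors that define blood lineages, are widely described as sensitive to it, whereas HEXIM1, an inhibitor of P-TEFb, and many histone genes are known to be induced. Thiouridine built into RNA is alkylated and read as a T-to-C change. Reads with such changes (labelled reads) are taken as RNA made during the pulse, although thiouridine still present in the cells and read errors can also give them. The remaining (unlabelled) reads come from RNA made before it, from RNA made during the uridine chase, and from labelled RNA whose read shows no change. Total reads are the sum of both kinds.

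The 0 h library held 12099803 total reads, and the JQ1 libraries held 12685641, 14177094 and 13859882 at 2, 4 and 8 h. Reads of fly S2 RNA, added at 5% to the purified human RNA, numbered 1479776 at 0 h and 1603344 to 1824170 under JQ1. All changes below are in human reads per fly read, so they are relative to RNA mass and not to cell number, and the level of a gene is given as fly-scaled RPM, its human reads per 1000000 fly reads. The 15 defining K562 markers were all present, with a summed level of 10842 to 12118 RPM (reads per 1000000 human reads) under JQ1 and 12784 at 0 h. The sum is mostly globin: HBG1, HBG2 and HBZ had 69022, 56514 and 13827 reads at 0 h, against 1422 for GATA1 and 18 for BCR. By the slope test below, 8 of 14 measured markers fell in JQ1 and 2 rose, beside 20.6% and 16.5% of all genes. Markers of other cell types summed to 705 to 893 RPM under JQ1, 760 to 1410 in DMSO and 701 at 0 h, and 9 of these 21 genes stayed under 10 reads in every library. Each condition has 1 library, so no difference has a replicate check. A p-value below measures the scatter of libraries about a line of log2 counts against time, fitted with edgeR's quasi-likelihood test to all 10 libraries, and intervals are exact 95% intervals for counting error only. The 0 h library, the denominator of every change given here, stood apart in its fly reads, as did the AZ-5576 2 h library of the model: the leading component of the fly gene profile, 52.0% of its variance, was 0.719 for AZ-5576 2 h, -0.230 to -0.210 in the JQ1 libraries, 0.155, 0.0542 and -0.228 in DMSO and 0.398 at 0 h. The part of this difference in the changes from 0 h was not tested beyond the fit with the component as a covariate, which gave 948 genes lower and 1597 higher in total reads, against 1818 and 1459 without it. Leaving out the AZ-5576 2 h library gave 1675 lower and 1758 higher.

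Total RNA moved little as a whole under JQ1. The median gene was at -0.01, -0.04 and 0.13 (log2 over 0 h) after 2, 4 and 8 h, and at 0.31, 0.30 and 0.49 in DMSO. Thus the median gene lay 0.31 (log2) below DMSO at 8 h without having fallen from 0 h. Scaling on the human reads (TMM) put the 8 h medians at 0.0089 in JQ1 and 0.042 in DMSO, so most of that distance depends on the fly scale. Labelled reads fell in both arms, to medians of -0.21, -0.61 and -1.59 in JQ1, against 0.09, -0.60 and -1.54 in DMSO. Unlabelled reads rose to medians of 0.19, 0.45 and 1.03 in JQ1, against 0.57, 1.00 and 1.47 in DMSO. The summed labelled reads per fly read ended at 44.5% of the 0 h value in JQ1 and 45.8% in DMSO, and the summed unlabelled reads at 122% in JQ1 and 142% in DMSO.

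**Figure D1:**
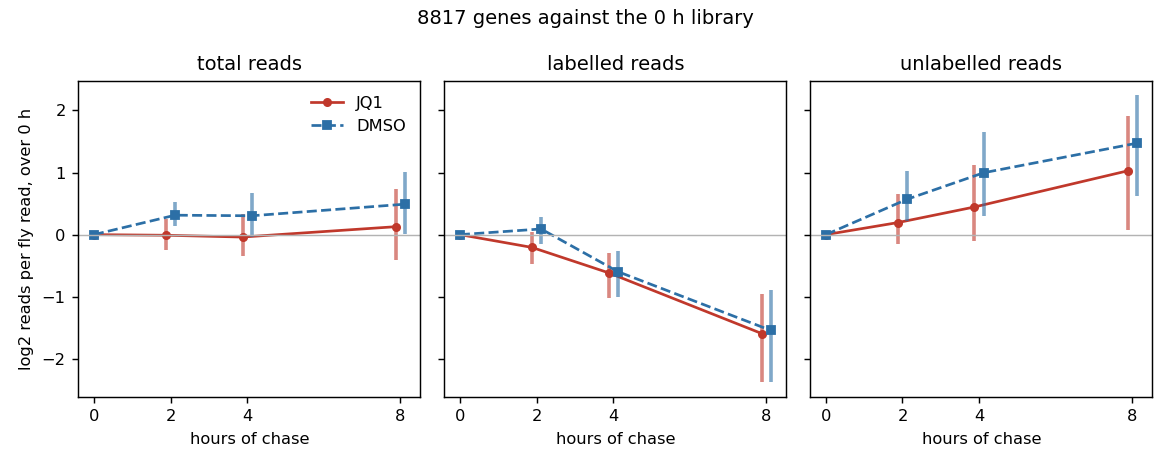
Change from 0 h in total, labelled and unlabelled reads per fly read of 8817 genes (log2, y axis) over the hours of chase (x axis), for JQ1 (red circles) and DMSO (blue squares). Symbols are medians over genes and bars span the lower to the upper quartile; the JQ1 and DMSO medians nearly meet for labelled reads at 4 and 8 h, and JQ1 lies below DMSO for total and unlabelled reads at every time.

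The slope of total reads under JQ1 was below 0 for 1818 genes (20.6% of those tested) and above 0 for 1459 genes (16.5%), at a Benjamini-Hochberg adjusted p under 0.05. All 1818 lower genes were below 0 h at 8 h, 716 of them by at least 2-fold, and 1204 of the 1459 higher genes were above 0 h by at least 2-fold. The counts rest on the JQ1 8 h library, without which 553 genes were lower and 241 higher. The common 0 h level of this fit draws on all 10 libraries, DMSO and AZ-5576 included. A fit to the 0 h and JQ1 libraries alone gave 1087 genes lower and 1823 higher. The median slope was -0.012 log2 per hour in the fit to all libraries and 0.016 in that fit. Against DMSO the calls were unequal: 1837 genes (20.8%) had a lower slope in JQ1 than in DMSO and 149 (1.69%) a higher one. With TMM scaling this split was 851 lower and 598 higher, and without the DMSO 8 h library it was 273 and 24. Of the 1837 genes lower than DMSO, 835 (45.5%) fell from 0 h in JQ1, 938 (51.1%) were not called in either direction and 64 (3.48%) rose. Of the 149 genes higher than DMSO, 122 (81.9%) rose from 0 h in JQ1.

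At 8 h, 1075 genes lay at least 2-fold below DMSO in total reads. Of these, 377 (4.28% of all genes tested) were also at least 2-fold below 0 h and are called falls, and 430 (4.88%) were less than 0.5 (log2) below 0 h, so that most of their distance to DMSO lay in the rise of DMSO over 0 h. The other 268 (3.04%) lay between. Genes high against DMSO divided differently: 128 of 162 (79.0%, and 1.45% of all genes tested) were at least 2-fold above 0 h in JQ1 and are called rises, whereas 15 (0.17% of all) owed most of their ratio to a fall in DMSO. With the same thresholds at each time, falls made up 12.2% of the low genes after 2 h, 23.1% after 4 h and 35.1% after 8 h. These classes rest on 3 libraries and carry no test, and those set by DMSO moved most with the scale: TMM gave 308 falls and 216 rises, but 138 genes with a rise in DMSO and 60 with a fall in DMSO.

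**Figure D2:**
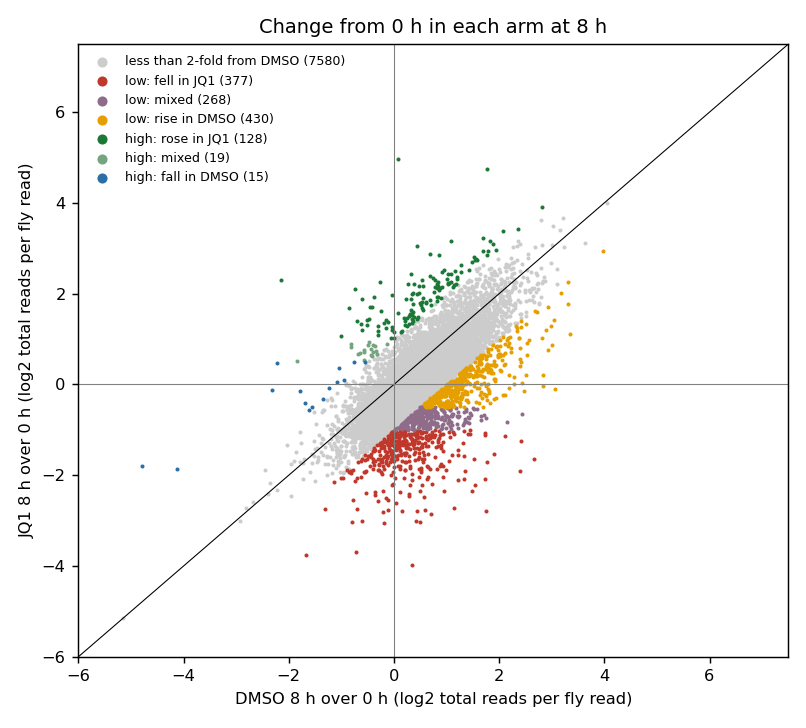
Change of each of 8817 genes from 0 h to 8 h in JQ1 (y axis) and in DMSO (x axis), as log2 total reads per fly read, coloured by class. The 377 genes that fell in JQ1 lie below -1 on the y axis, while the 430 genes low through a rise in DMSO lie near or above 0 on it.

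Falls were frequent among transcription factors of the erythroid and leukaemia programme. This list was written with earlier results of these data known, so its counts are a description and no independent test. Of 34 such factors, 27 passed the filter; 15 fell and 1, HHEX, rose, beside 20.6% and 16.5% of all genes, and 10 were in the class of falls, beside 4.28% of all genes. The list's median at 8 h was -0.49 (log2 over 0 h) in JQ1 and 0.69 in DMSO. GATA1, the master regulator of erythroid genes (chrX:48786554-48794311, plus strand, GRCh38), had 961 fly-scaled RPM at 0 h, 617, 519 and 184 at 2, 4 and 8 h of JQ1, and 972, 794 and 1038 in DMSO. Every JQ1 library was below 0 h and below the DMSO library of its time. By 8 h GATA1 was at 19.2% of 0 h in JQ1 (95% interval 17.0% to 21.7%) and at 108% in DMSO, and its JQ1 slope was -0.31 ± 0.037 log2 per hour (SE; adjusted p = 5.95e-07, edgeR).

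KLF1, the erythroid activator of the adult globin gene (chr19:12884422-12887199, minus strand), fell further and sooner. It had 556 fly-scaled RPM at 0 h and 293, 123 and 81.3 under JQ1, against 530, 392 and 842 in DMSO. NFE2, which drives globin and platelet genes, had 628 at 0 h, 339, 92.6 and 77.3 in JQ1 and 497, 318 and 840 in DMSO. At 2 h of JQ1 they were already at 52.6% (KLF1) and 53.9% (NFE2) of 0 h, and most of their fall in log2 was complete by 4 h. LYL1, a basic helix-loop-helix factor of blood progenitors (chr19:13099033-13103161, minus strand), had 1183 at 0 h, 785, 394 and 210 in JQ1 and 1012, 671 and 1066 in DMSO. In these 3 genes DMSO itself dipped at 4 h and was back at 8 h, so the 4 h ratio to DMSO understates the change from 0 h and the 8 h ratio overstates it for KLF1 and NFE2. GFI1B, a repressor of erythroid and platelet precursors, had 429 at 0 h, 256, 80.0 and 92.2 in JQ1 and 330, 243 and 619 in DMSO. LMO2, the bridging subunit of the TAL1 complex, had 247 at 0 h, 191, 123 and 60.1 in JQ1 and 264, 190 and 386 in DMSO.

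CBFA2T3 (ETO2), a corepressor bound to the GATA1 and TAL1 complex, moved in opposite directions in the arms: it had 145 at 0 h, 111, 66.9 and 20.6 in JQ1 and 161, 148 and 485 in DMSO. Its 8 h level was 14.3% of 0 h in JQ1 and 336% in DMSO. IKZF1 (Ikaros) declined steadily in JQ1, to 33.5% of 0 h, with DMSO at 104%. SOX6, a silencer of fetal globin, and NFIA were higher than 0 h at 2 h of JQ1 (0.42 and 1.32, log2) and fell only by 8 h (-1.33 for SOX6, and 49.8% of 0 h for NFIA), so NFIA sits at the edge of the class. All 10 of these factors stayed in the class of falls under each of the other scales tried (TMM, DESeq2 size factors and TMM on the fly genes). Markers of megakaryocytes, a neighbouring lineage that shares NFE2 and GATA1, summed to 12.3 to 48.3 RPM under JQ1, 39.2 to 94.9 in DMSO and 82.2 at 0 h, but most of this was NFE2 itself: the other 13 in the tables summed to 1.83 to 5.52 RPM under JQ1, 2.37 to 3.69 in DMSO and 5.29 at 0 h. Of the 14, 10 stayed under 10 reads in every library and 4 were at 0.

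The promoters of KLF1 and LYL1, shown because both genes are erythroid factors that fell and both windows hold letters of the GATA motif (AGATAA or TGATAA on either strand, in capitals), are given 5′ to 3′ on the gene's strand, from 250 bases before to 50 after the start (RefSeq, GRCh38.p14; KLF1 chr19:12887152-12887451, LYL1 chr19:13102809-13103108, both minus strand).
KLF1: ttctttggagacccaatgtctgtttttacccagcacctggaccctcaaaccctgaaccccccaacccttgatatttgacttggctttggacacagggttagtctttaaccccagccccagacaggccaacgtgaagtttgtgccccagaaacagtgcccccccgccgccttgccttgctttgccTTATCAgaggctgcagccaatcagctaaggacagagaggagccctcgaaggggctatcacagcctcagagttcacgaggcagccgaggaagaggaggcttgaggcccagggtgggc
LYL1: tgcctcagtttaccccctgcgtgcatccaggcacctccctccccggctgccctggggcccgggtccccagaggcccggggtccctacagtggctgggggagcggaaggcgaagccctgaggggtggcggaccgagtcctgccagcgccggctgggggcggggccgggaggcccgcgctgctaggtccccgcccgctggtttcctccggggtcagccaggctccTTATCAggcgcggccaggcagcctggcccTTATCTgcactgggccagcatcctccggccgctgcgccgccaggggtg
The motif was present in 30 of the 277 falls with a promoter in the RefSeq table (10.8%), in 38 of the 353 genes low through a rise in DMSO (10.8% as well), in 7.29% of the genes tested with one and in 16.6% of all 27305 promoters. Among the 10 factors that fell, 8 had a promoter and 2 held the motif.

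The class set by a rise in DMSO, less than 0.5 (log2) below 0 h at 8 h of JQ1, held 6 further factors of the list, and also MYC and PIM1 of other lists. MYC, the growth regulator often used as a readout of BET inhibition, had 237 fly-scaled RPM at 0 h, 85.4, 56.5 and 223 in JQ1 and 160, 325 and 710 in DMSO. It was therefore low in JQ1 at 2 and 4 h (-1.47 and -2.06, log2 over 0 h) and back at 94.4% of 0 h at 8 h (interval 81.5% to 109%), when DMSO stood at 300%. A straight line misses this course (slope 0.02 ± 0.056 log2 per hour, adjusted p = 0.777, edgeR), and without the JQ1 8 h library the slope was -0.43 (adjusted p = 0.00299). MYB, a factor of blood progenitors, had 901 at 0 h, 743, 418 and 768 in JQ1 and 1040, 1935 and 3039 in DMSO. GATA2, the progenitor GATA factor, had 1108 at 0 h, 698, 451 and 994 in JQ1 and 1180, 1089 and 2046 in DMSO. Both dipped to their lowest value at 4 h of JQ1 and returned, while DMSO ended at 337% of 0 h for MYB and 185% for GATA2.

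TAL1, a basic helix-loop-helix partner of GATA1, took the same course, with 1130 at 0 h, 813, 508 and 805 in JQ1 and 1131, 1262 and 1827 in DMSO, and still fell by the slope (adjusted p = 0.0433, edgeR). RUNX1, which sets up definitive blood formation, did not dip: it had 206 at 0 h, 313, 206 and 206 in JQ1 and 358, 363 and 653 in DMSO, so its whole 8 h ratio came from DMSO. PIM1, a kinase induced by STAT5 signalling, had 405 at 0 h, 422, 217 and 589 in JQ1 and 727, 1052 and 1671 in DMSO, and was thus above 0 h in JQ1 at 8 h and below DMSO. Without the JQ1 8 h library its slope turned from positive to -0.25 log2 per hour. The cofactor genes ZFPM1 (FOG1) and LDB1 ended at 92.5% and 129% of 0 h in JQ1, with DMSO at 203% and 279%. MYC, MYB, RUNX1 and PIM1 stayed in this class under TMM scaling, whereas GATA2, TAL1, ZFPM1 and LDB1 were then less than 2-fold from DMSO. In all, 55 of the 430 genes with a rise in DMSO were at or below -0.5 (log2 over 0 h) at 4 h of JQ1 and above it at 8 h. Of all 8817 genes tested 423 took this course, 364 of them less than 2-fold from DMSO at 8 h.

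**Figure D3:**
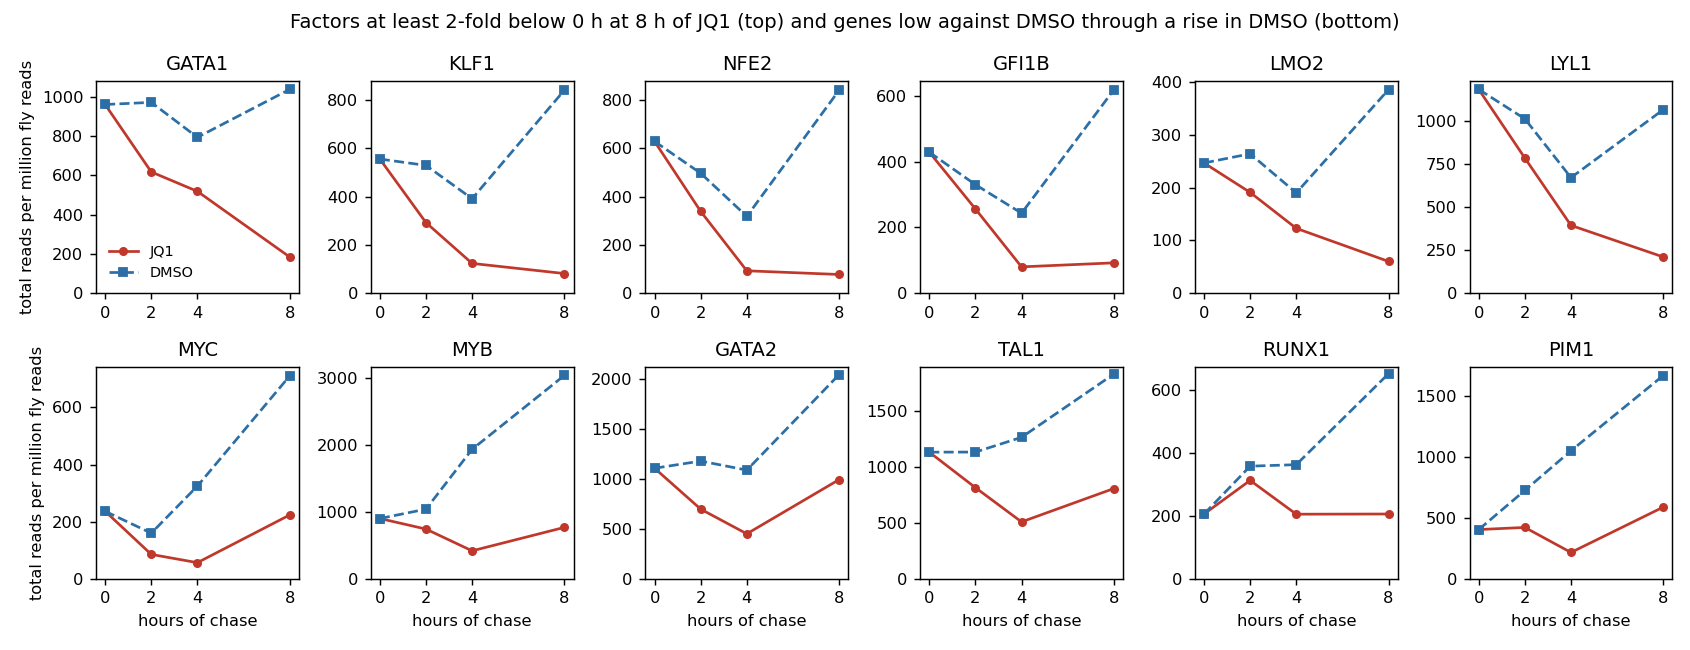
Total reads in fly-scaled RPM (y axis) over the hours of chase (x axis) for 12 genes in JQ1 (red, solid) and DMSO (blue, dashed), 1 library a point. GATA1, KLF1, NFE2, GFI1B, LMO2 and LYL1 end far below 0 h in JQ1; MYC, MYB, GATA2 and TAL1 dip and return, and DMSO rises above 0 h by 8 h in all 6 genes of the lower set.

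Many products of the red cell programme also fell. Of 34 globin, haem, membrane and related genes measured, 18 fell (52.9%, beside 20.6% of all genes) and 3 rose, with medians of -0.50 (log2 over 0 h) in JQ1 and 0.18 in DMSO, and 6 were in the class of falls, among them HEMGN, ERMAP, AHSP and EPOR. HEMGN (hemogen), a nuclear protein of erythroid cells, had 98 fly-scaled RPM at 0 h, 100, 38.9 and 25.8 in JQ1 and 182, 255 and 517 in DMSO. ERMAP, an erythroid membrane protein, had 264 at 0 h, 259, 162 and 116 in JQ1 and 358, 331 and 425 in DMSO. Both ended below 0 h in JQ1 and above it in DMSO, so their ratio at 8 h combines a fall with a rise. EPOR, the erythropoietin receptor, ended at 16.5% of 0 h in JQ1 and 80.8% in DMSO. AHSP, the chaperone of alpha globin, ended at 32.0% in JQ1 and 65.8% in DMSO, and it left the class under TMM scaling. Of the 6 globin genes measured, HBA1, HBA2 and HBG2 fell. HBA2 was at -0.88 (log2) in JQ1 and -0.50 in DMSO at 8 h, HBA1 at -0.55 in JQ1 and -0.28 in DMSO, and HBG2 at -0.39 in JQ1 and -0.29 in DMSO, and the differences from DMSO were not called. HBZ (-0.38 in JQ1 and -0.29 in DMSO), HBG1 (-0.23 and -0.20) and HBE1 (0.21 and -0.28) did not pass the test (adjusted p = 0.0959, 0.0655 and 0.919, edgeR). HBA1 and HBA2, and HBG1 and HBG2, are near-identical pairs whose reads may be split between them. The receptor TFRC and the haem enzyme genes CPOX and ALAD rose, with ALAD alone also rising over DMSO (1.52 in JQ1 and 0.30 in DMSO).

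Falls of total RNA were ranked by 8 h value. The genes ranked were called, had a mean total count of at least 100 and were below 0 h at 2, 4 and 8 h of JQ1. The 10 largest falls so ranked reached -3.68 to -2.79 (log2 over 0 h). PLD6, a mitochondrial phospholipase, had 451 fly-scaled RPM at 0 h, 292, 110 and 34.9 in JQ1 and 453, 243 and 275 in DMSO, which is 7.74% of 0 h in JQ1 (interval 5.85% to 10.1%) and 60.9% in DMSO. CAVIN2, a coat protein of caveolae, had 169 at 0 h, 144, 81.7 and 20.0 in JQ1 and 175, 104 and 149 in DMSO. RAB3IL1, an exchange factor for Rab GTPases, had 167 at 0 h, 127, 91.5 and 20.0 in JQ1 and 215, 191 and 235 in DMSO. All 3 stepped down at every time in JQ1. TRIB3, a pseudokinase of the stress response, ended at 12.2% of 0 h in JQ1 and 57.8% in DMSO. ZNF689 was at 38.9% of 0 h within 2 h and at 12.3% at 8 h, with DMSO at 65.8%. RHOH, a GTPase of blood cells, ended at 13.7% in JQ1 and 164% in DMSO, and FOSL1, a FOS family factor, at 14.3% in JQ1 and 111% in DMSO. NFE2 and CBFA2T3 complete the set with RPL35AP33, a processed pseudogene whose value of -3.02 in JQ1 was matched by -2.93 in DMSO. ICAM2, an adhesion molecule of vessel and blood cells, and ARHGAP22, a regulator of Rac GTPases, were among the falls farthest below DMSO: ICAM2 had 121 at 0 h, 66.1, 60.3 and 23.5 in JQ1 and 124, 93.6 and 340 in DMSO, and ARHGAP22 ended at 14.8% of 0 h in JQ1 and 222% in DMSO. The pseudogene is the only one of the 10 within 0.5 (log2) of DMSO, and its reads may be shared with the parent gene or its copies.

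Genes of ribosome biogenesis, which MYC is known to drive, were low against DMSO on the fly scale, and only in part below 0 h. All 40 genes measured were below DMSO at 8 h, beside 74.7% of all genes. Under TMM scaling 35 of the 40 were (87.5%), beside 48.5% of all genes. A slope lower than in DMSO was called in 29, beside 20.8% of all genes, whereas 20 fell from 0 h, 3 were falls by the 8 h class and 14 were genes with a rise in DMSO. The list's median was -0.33 (log2 over 0 h) in JQ1 and 0.72 in DMSO, beside 0.13 and 0.49 for all genes. The 3 falls were RRS1, a regulator of ribosome assembly (-1.86 in JQ1 and 0.12 in DMSO), MYBBP1A (-1.40 and 0.23) and PES1 (-1.27 and 0.47). By contrast UTP20, a subunit of the small-subunit processome, was at 1.02 in JQ1 and 2.82 in DMSO, and RRP9 at -0.42 in JQ1 and 1.62 in DMSO. NPM1 was at -0.37 in JQ1 and -0.07 in DMSO. With TMM scaling 5 of the 40 were genes with a rise in DMSO, while the falls numbered 3 as before.

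Ribosomal protein mRNAs were a little below 0 h in both arms: 27 of 83 (32.5%, beside 20.6% of all genes) fell and 0 rose, with medians of -0.25 in JQ1 and -0.19 in DMSO (edgeR; 0 of 83 in any 8 h class). Nuclear genes of oxidative phosphorylation had 29 of 76 lower (38.2%) and 1 higher, with medians of -0.23 in JQ1 and -0.12 in DMSO. Among 23 genes of cholesterol synthesis and uptake, 11 fell (47.8%) and 2 rose (8.70%), with medians of -0.49 in JQ1 and -0.32 in DMSO. PMVK, an enzyme of the mevalonate pathway, was in the class of falls. Of 181 numbered zinc finger genes, 46 fell (25.4%) and 18 rose (9.94%, beside 16.5% of all genes), and 14 were falls by class (7.73%, beside 4.28%). Glycolysis had 6 of 20 lower (30.0%) and 3 higher (15.0%). The falls that JQ1 shared with DMSO were a minority: of 734 genes (8.32%) at least 2-fold below 0 h at 8 h of JQ1, 139 (18.9%) lay within 0.5 (log2) of DMSO, and 43 of these 139 were annotated as pseudogenes, against 595 of all 8817 genes.

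On a list of genes described as induced by BET inhibition, 10 of the 10 measured rose in JQ1, beside 16.5% of all genes. A further 7 members were below the filter, whose mean labelled count includes the JQ1 libraries. The list was written with earlier results of these data known, so the count is a description and no independent test. The median of the 10 genes at 8 h was 1.81 (log2 over 0 h) in JQ1 and -0.33 in DMSO, and none of the 10 lay below DMSO. HEXIM1, which holds P-TEFb inactive in the 7SK particle (chr17:45148502-45152101, plus strand), had 312 fly-scaled RPM at 0 h, 596, 1382 and 2250 in JQ1 and 372, 460 and 567 in DMSO. It rose at each step, to 721% of 0 h (interval 654% to 795%), and its slope was 0.37 ± 0.032 log2 per hour in JQ1 (adjusted p = 3.09e-09, edgeR), 0.29 ± 0.036 above that of DMSO (adjusted p = 2.13e-06). H2BC21, a histone H2B gene outside the main cluster (chr1:149884459-149886652, minus strand), had 105 at 0 h, 228, 291 and 504 in JQ1 and 120, 100 and 86.8 in DMSO. H2BC5, in the large cluster on chromosome 6, had 326 at 0 h, 363, 630 and 1055 in JQ1 and 310, 204 and 181 in DMSO.

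H2AC11 and H3C10, histone genes outside that list, also rose. H2AC11 had 93.9 at 0 h, 115, 198 and 462 in JQ1 and 96.8, 55.5 and 21 in DMSO, the widest gap to DMSO of any named rise but ADARB1. H3C10 had 285 at 0 h, 393, 479 and 1218 in JQ1 and 317, 237 and 171 in DMSO. Histone genes and histone pseudogenes were counted by a pattern of symbols, which leaves out CENPA and the H2AX, H2AZ and macroH2A genes. Of the 16 that matched it and passed the filter, 10 were in the class of rises, beside 1.45% of all genes tested. Of the other 6, the linker histone H1-2 was at 0.78 (log2) in JQ1 and -0.43 in DMSO, H2AC25 at 0.57 and -0.24 and H2BC15 at 1.70 and 0.94. The replacement histone genes H3-3A (0.63 in JQ1 and 0.14 in DMSO) and H3-3B (1.47 and 0.88) were above 0 h in both arms, and the pseudogene H3C9P fell (-1.05 in JQ1 and -0.80 in DMSO; adjusted p = 0.0173, edgeR). Histone genes are near-identical copies of each other and their reads may be split between them.

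The promoters of HEXIM1 and H2BC21 are shown because both genes rose and both hold the TATA box TATAAA (either strand, in capitals with any GATA letters), again from RefSeq, GRCh38.p14, 250 bases before to 50 after the start (HEXIM1 chr17:45148225-45148524, plus strand; H2BC21 chr1:149886633-149886932, minus strand).
HEXIM1: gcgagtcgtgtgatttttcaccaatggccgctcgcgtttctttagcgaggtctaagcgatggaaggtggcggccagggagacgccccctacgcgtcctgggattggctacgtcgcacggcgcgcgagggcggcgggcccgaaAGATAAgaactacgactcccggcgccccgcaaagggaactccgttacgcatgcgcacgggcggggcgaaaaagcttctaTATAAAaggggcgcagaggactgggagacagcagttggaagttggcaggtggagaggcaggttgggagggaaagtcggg
H2BC21: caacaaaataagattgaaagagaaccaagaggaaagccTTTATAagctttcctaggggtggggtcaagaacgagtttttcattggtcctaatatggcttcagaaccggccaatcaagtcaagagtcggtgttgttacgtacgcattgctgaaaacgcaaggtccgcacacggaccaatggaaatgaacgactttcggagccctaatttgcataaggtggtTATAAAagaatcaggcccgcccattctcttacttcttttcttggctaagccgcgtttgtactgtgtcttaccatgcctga
TATAAA was present in 21 of the 97 rises with a RefSeq promoter (21.6%), in 4 of the 12 genes high through a fall in DMSO (33.3%), in 4.99% of the genes tested with one and in 12.0% of all promoters of the table. Of these 21, 9 were histone genes by the pattern of symbols. The remaining 12 were 13.6% of the 88 rises outside that pattern, beside 4.85% of the genes tested outside it. No motif letters overlap in the 4 promoters printed, these are shares of letters, and no binding was measured.

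ADARB1, an enzyme that edits adenosine to inosine in RNA, had the largest rise of the named genes. It had 27.7 fly-scaled RPM at 0 h, 43.0, 349 and 872 in JQ1 and 42.2, 33.6 and 29.5 in DMSO. At 2 h both arms were alike and somewhat above 0 h; the values in JQ1 then climbed at 4 and 8 h, and those in DMSO did not. TUBB3, a beta tubulin best known from neurons, had 46.6 at 0 h, 174, 589 and 1259 in JQ1 and 50.5, 105 and 160 in DMSO. The 8 h values in JQ1 were 3148% of 0 h for ADARB1 and 2701% for TUBB3. Of the 11 tubulin genes measured 4 rose (36.4%, beside 16.5% of all genes) and 2 fell (18.2%, beside 20.6%). At 8 h 9 of the 11 were less than 2-fold from DMSO, and the list's median ratio of JQ1 to DMSO was -0.01 (log2). TUBB4B, in the class of rises with TUBB3, was at 1.06 in JQ1 against -1.01 in DMSO.

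The median immediate-early gene was above 0 h in both arms. Of 27 immediate-early and feedback genes, 12 rose (44.4%, beside 16.5% of all genes) and 3, KLF6, TNFAIP3 and FOSL1, fell. Their medians were 0.68 (log2 over 0 h) in JQ1 and 0.86 in DMSO at 2 h, and 1.10 in JQ1 and 1.03 in DMSO at 8 h. The 3 genes that follow were picked after their values were seen. IER5 had 431 at 0 h, 2030, 2760 and 4008 in JQ1 and 765, 992 and 1396 in DMSO. JUN, a subunit of AP-1, had 273 at 0 h, 1338, 974 and 1377 in JQ1 and 542, 547 and 549 in DMSO, so its rise was complete by 2 h. EGR1 peaked at 2 h, with 49.3 at 0 h, 1718, 277 and 311 in JQ1 and 232, 138 and 218 in DMSO; a straight line does not describe it (adjusted p = 0.622, edgeR). TNFAIP3 and FOSL1 were falls by class. In the heat shock list 11 of 20 rose (55.0%, beside 16.5% of all genes) and 1 fell (5.00%, beside 20.6%). The list's medians at 8 h were 0.73 (log2 over 0 h) in JQ1 and 0.55 in DMSO, and 17 of the 20 were less than 2-fold from DMSO. HSPA1A, 1 of 2 members in the class of rises, had 2530 at 0 h, 2641, 4179 and 6462 in JQ1 and 2504, 2172 and 2224 in DMSO. Its near-identical copy HSPA1B moved alike (1.42 in JQ1 and -0.52 in DMSO), and the reads of the pair cannot be told apart.

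**Figure D4:**
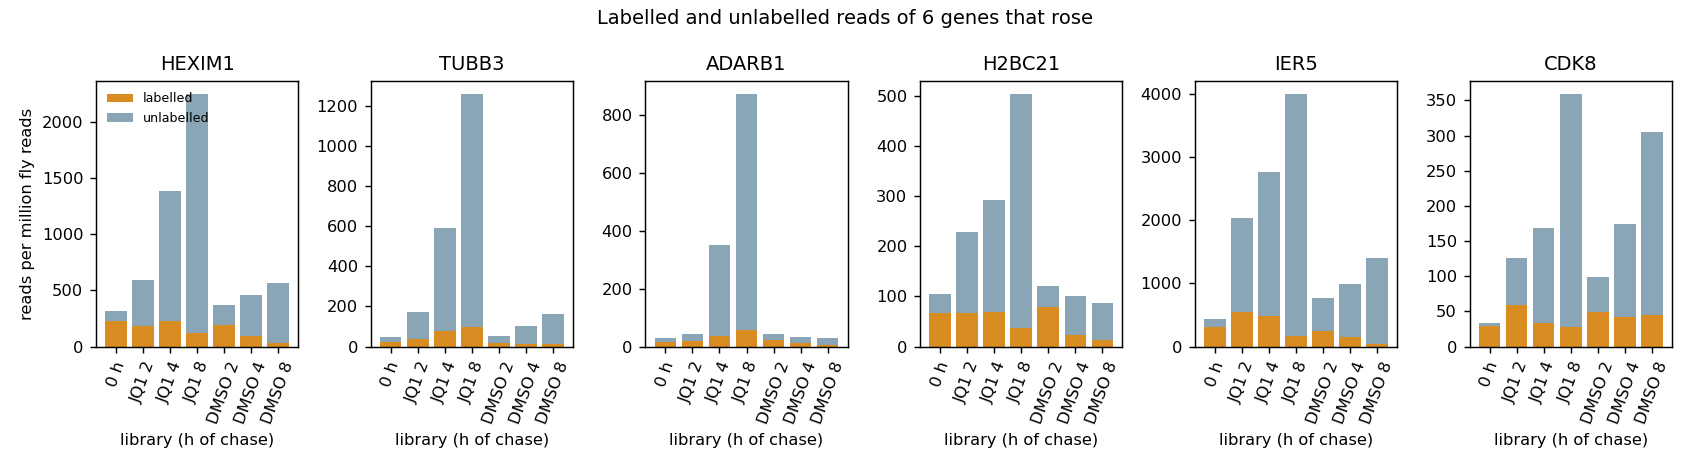
Labelled (orange) and unlabelled (grey) reads in fly-scaled RPM, stacked to the total (y axis), of 6 genes in the 0 h library and in JQ1 and DMSO at 2, 4 and 8 h (x axis). HEXIM1, TUBB3, ADARB1 and H2BC21 rise chiefly in JQ1 and in unlabelled reads; IER5 rises in both arms and further in JQ1, and CDK8 rises alike in both.

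Most rises were shared with the vehicle. Of 1478 genes (16.8%) at least 2-fold above 0 h at 8 h of JQ1, 952 (64.4%) lay within 0.5 (log2) of DMSO. CDK8, the Mediator kinase, was one: it had 33.8 at 0 h, 125, 169 and 360 in JQ1 and 98.5, 175 and 305 in DMSO. The mitosis list had 23 of 38 genes (60.5%) higher and 0 lower in JQ1, beside 16.5% and 20.6% of all genes (edgeR). Its medians were 1.01 in JQ1 and 1.04 in DMSO. CENPA, the centromeric histone, was its only member in the class of rises (2.74 in JQ1 and 1.55 in DMSO). Among the other protein-coding named rises, FBXO10 (3.67 in JQ1 and 3.21 in DMSO) and IGF2R (3.49 and 3.03) were within 0.5 of DMSO, as was the pseudogene RPL38P5 (4.00 and 4.06). KDM3A lay further above DMSO (3.62 in JQ1 and 2.79 in DMSO), and RABGAP1 (3.91 and 2.82), IPMK (3.43 and 2.36) and RSRP1 (3.39 and 2.07) were in the class of rises. The P-TEFb and BET list had 13 of 33 higher (39.4%, beside 16.5% of all genes) and 2 lower (6.06%, beside 20.6%). Its medians were 0.88 in JQ1 and 0.86 in DMSO. BRD2, a BET protein, rose in JQ1 (0.88) against -0.41 in DMSO.

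Survival and cell cycle genes moved in both directions. BCL2L1 (BCL-XL) fell, to -0.62, -0.87 and -1.30 (log2 over 0 h) at 2, 4 and 8 h of JQ1, with DMSO at 0.34 at 8 h, and so did CFLAR, a brake on death receptors (-1.09 in JQ1 and 0.93 in DMSO). MCL1 and the pro-death gene BCL2L11 (BIM) rose, to 1.93 and 2.24 in JQ1, with DMSO at 1.37 and 1.04. The apoptosis list had 4 of 17 lower (23.5%, near the 20.6% of all genes) and 6 higher (35.3%, beside 16.5%). Among 16 G1 cyclins and inhibitors 2 fell (12.5%) and 6 rose (37.5%); CCND2 fell to -0.82 in JQ1, with DMSO at 0.45, and CDK6 was at 0.02 in JQ1 and 0.98 in DMSO. Of 9 STAT5 targets 3 fell (33.3%, beside 20.6% of all genes) and 3 rose (33.3%, beside 16.5%), SOCS3 among the rises (2.85 in JQ1 and 1.76 in DMSO). In the MYC and MAX network, MNT fell (-1.09 in JQ1 and -0.26 in DMSO), and MXD1 and MXD4, both antagonists of MYC, rose (2.48 and 1.41 in JQ1, against 1.28 and 0.37 in DMSO). The integrated stress response divided as well, with 8 of 22 lower (36.4%) and 6 higher (27.3%): STC2 and TRIB3 were falls (-3.99 and -3.03 in JQ1, against 0.35 and -0.79 in DMSO), while SESN2 rose (1.89 in JQ1 and 0.22 in DMSO). The mRNA decay list had 10 of 57 lower (17.5%) and 7 higher (12.3%), and the snoRNA host list 3 of 16 lower (18.8%) and 2 higher (12.5%), all below the shares of all genes. The mitochondrially encoded mRNAs had 3 of 9 lower (33.3%, beside 20.6% of all genes) and 0 higher.

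**Figure D5:**
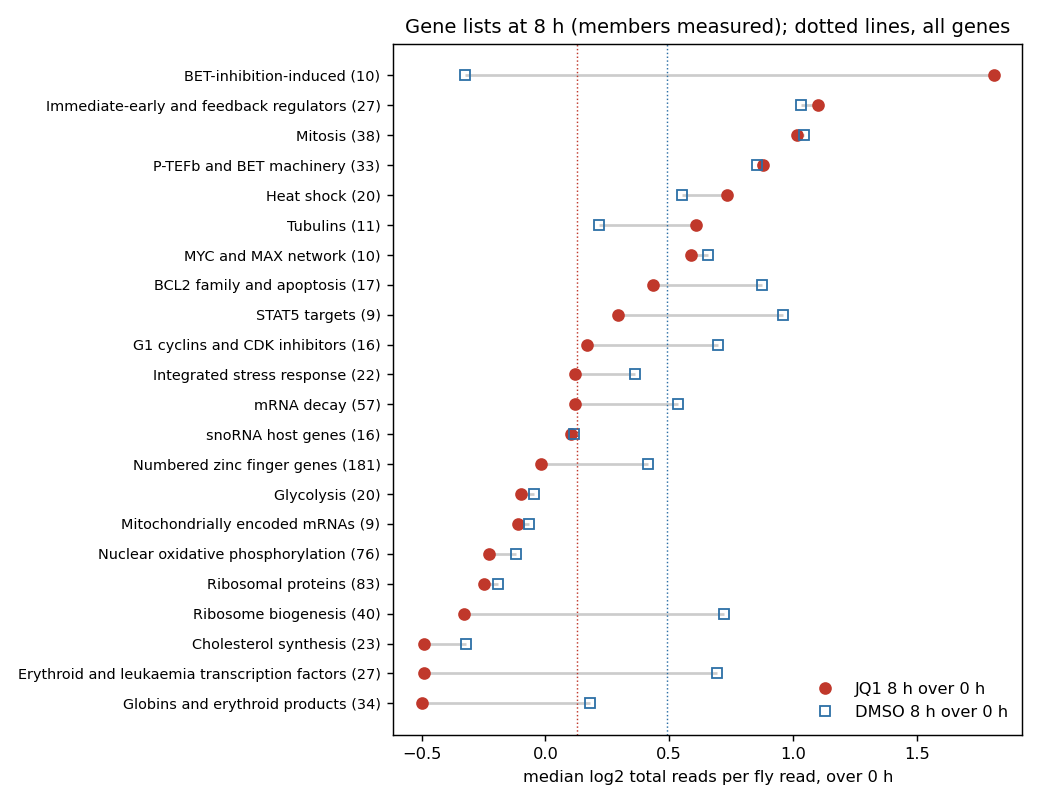
Median change from 0 h to 8 h in total reads per fly read (log2, x axis) of 22 gene lists, with the number of members measured in brackets, in JQ1 (filled circles) and DMSO (open squares); dotted lines mark all genes. The genes induced by BET inhibition lie at 1.81 in JQ1 and -0.33 in DMSO, and the erythroid factors at -0.49 and 0.69.

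The genes farthest below DMSO in the class set by a rise in DMSO ended near 0 h in JQ1, as the class requires, but not all had stayed there. NRROS, a receptor-associated regulator of TGF-beta activation, had 28.4 fly-scaled RPM at 0 h, 46.8, 20.8 and 26.3 in JQ1 and 120, 139 and 239 in DMSO. ZMYND8, a reader of histone marks, had 472 at 0 h, 1137, 516 and 459 in JQ1 and 1279, 1845 and 3348 in DMSO. ADAMTS14, a collagen-processing protease, had 56.1 at 0 h, 75.5, 62.5 and 51.0 in JQ1 and 79.5, 146 and 312 in DMSO. At 8 h NRROS was at 92.8% of 0 h in JQ1 and 841% in DMSO, ZMYND8 at 97.3% and 710%, and ADAMTS14 at 90.9% and 557%. NSMAF and PPP1R26-AS1 behaved alike (0.22 and 0.03 in JQ1, against 2.82 and 2.43 in DMSO). ZMYND8 stood at 241% of 0 h at 2 h of JQ1 and 271% at 2 h of DMSO before it declined in JQ1, and its slope, which is called lower (adjusted p = 0.0202, edgeR), turned positive (0.58) when a mean level per arm replaced the slope.

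The opposite class, high through a fall in DMSO, held 15 genes. FGFR3, a growth factor receptor, had 87.9 at 0 h, 61.1, 107 and 123 in JQ1 and 66.2, 45.3 and 18.7 in DMSO. The metallothionein MT2A had 492 at 0 h, 465, 391 and 630 in JQ1 and 518, 330 and 237 in DMSO, and MT1X had 220 at 0 h, 141, 196 and 166 in JQ1 and 175, 148 and 67.5 in DMSO. FGF18 fell in both arms, to 27.5% of 0 h in JQ1 (193 and 159 fly-scaled RPM at 2 and 4 h, and 36.7 at 8 h, against 133 at 0 h) and 5.54% in DMSO, and its JQ1 slope was 0.11 log2 per hour without the JQ1 8 h library. PYCARD-AS1 had 101 at 0 h, 164, 194 and 92.8 in JQ1 and 93.5, 62.9 and 19.8 in DMSO; it is an antisense gene, and whether the counting used strand is not given. In the cholesterol list INSIG1 and TM7SF2, both targets of sterol control, were of this class, at -0.07 and -0.49 in JQ1 and -1.23 and -1.56 in DMSO.

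Loss of the labelled RNA was called in 8007 genes (90.8%) under JQ1 and 10 genes (0.113%) gained label. The half-life of label, the inverse of the slope in hours and not corrected for growth, had a median of 4.24 h in JQ1 and 4.45 h in DMSO. Its quartiles were 2.96 h and 6.43 h in JQ1, against 3.05 h and 6.94 h in DMSO. By class, the median was 2.60 h in JQ1 for the falls (3.03 h in DMSO), 3.46 h for genes with a rise in DMSO (4.59 h in DMSO) and 5.07 h for the rises (3.27 h in DMSO). Since labelled reads are part of the total reads that set the classes, these are descriptions. A labelled slope is the net of loss and any gain of labelled reads in the chase, so a half-life need not be one of decay alone. Only genes with a labelled slope below 0 have one, which were 8711 in JQ1 and 8705 in DMSO. The erythroid factors had a median of 2.25 h in JQ1 and 2.30 h in DMSO, below the medians of all genes in both arms. KLF1 and NFE2 lost label with half-lives of 1.35 h and 1.40 h in JQ1 (1.56 h each in DMSO), and the ribosomal proteins had a median of 11.2 h in JQ1 and 13.4 h in DMSO.

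The steepest label losses among genes with at least 200 labelled reads at 0 h were in PELO (1.13 h), MT-ND1 and TMEM223 (1.15 h each), RRS1 (1.16 h), ADO (1.19 h) and GEMIN4 (1.24 h). The shallowest were in SDCBP, GNAS and 4 pseudogenes of ribosomal proteins, whose slopes did not pass the test. MT-ND4 had the lowest labelled share of any gene with at least 1000 reads at 8 h of JQ1, with 73 of 47791 reads (0.153%), against 834 of 26376 (3.16%) at 0 h.

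Labelled slopes differed between JQ1 and DMSO in few genes: 31 were lower in JQ1 (0.352% of those tested) and 28 higher (0.318%), at an adjusted p under 0.05 (edgeR); 657 differed at an unadjusted p under 0.05. With TMM scaling the split was 7 lower and 137 higher. Without the DMSO 8 h library it was 5 and 5, without the JQ1 8 h library 4 and 11, without the JQ1 4 h library 9 and 14, and without the 0 h library 54 and 33. Of the 28 higher genes, 21 were in the class of rises and 0 in the class of falls, and 5 had more labelled reads per fly read at 8 h of JQ1 than at 0 h. Of the 31 lower genes, 10 were falls, 12 were genes with a rise in DMSO and 0 were rises. HEXIM1 had 226 labelled fly-scaled RPM at 0 h, 184, 231 and 121 in JQ1 and 191, 95.0 and 28.4 in DMSO. Its labelled reads thus hardly fell until 4 h in JQ1, although the uridine chase had begun. TUBB3 and ADARB1 gained labelled reads during the chase: TUBB3 had 25 at 0 h, 37.4, 76.7 and 97.4 in JQ1 and 18.2, 13.2 and 11.9 in DMSO, and ADARB1 had 15.5, then 20.0, 36.7 and 56.7 in JQ1 and 21.5, 12.4 and 5.67 in DMSO. At 8 h these labelled reads were 7.73% of the TUBB3 reads and 6.50% of the ADARB1 reads in JQ1. No half-life is given for either gene.

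Among the 31 genes of lower labelled slope, chosen here after their values were seen, NR2F2, a nuclear receptor, had 776 labelled fly-scaled RPM at 0 h, 551, 179 and 44.1 in JQ1 and 752, 493 and 142 in DMSO. AEN, a nuclease of the p53 response, had 1047 at 0 h, 775, 306 and 92.8 in JQ1 and 1017, 598 and 243 in DMSO. MYB had 557 at 0 h, 365, 170 and 68.2 in JQ1 and 435, 316 and 153 in DMSO, a difference in slope of -0.16 ± 0.038 log2 per hour (adjusted p = 0.00667, edgeR). PIM1, HEMGN and ZNF689 were also among them. GATA1 and KLF1 were not called (slope differences of -0.07 ± 0.044 and -0.10 ± 0.065, adjusted p = 0.831 for both, edgeR), so their fall in total RNA was not accompanied by a detected change in label loss.

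Unlabelled reads, which include RNA made during the chase, fell in 787 genes (8.93%) and rose in 3897 (44.2%) under JQ1. Without the JQ1 8 h library these counts were 39 and 548. Against DMSO, 1441 genes (16.3%) had a lower and 87 (0.987%) a higher unlabelled slope in JQ1, or 567 and 208 with TMM scaling. GATA1 had 625 unlabelled fly-scaled RPM at 0 h, 399, 358 and 158 in JQ1 and 680, 651 and 991 in DMSO. KLF1 had 334 at 0 h, 181, 89.9 and 75.0 in JQ1 and 353, 354 and 832 in DMSO. In both, the unlabelled pool shrank at every step of JQ1, whereas MYC had 60.8 at 0 h, 47.4, 35.1 and 212 in JQ1 and 88.6, 292 and 687 in DMSO. The class of falls had a median unlabelled change of -0.92 at 8 h in JQ1 and 1.00 in DMSO, and the genes with a rise in DMSO 1.09 in JQ1 and 2.53 in DMSO. Beside PLD6, RAB3IL1 and CBFA2T3, the largest unlabelled falls by the ranking used were CD24, a surface protein (-2.63 in JQ1 and -0.02 in DMSO), IGFBP4 (-2.31 and 0.50) and ALKBH4 (-2.29 and 0.19). The largest rises were CDK8, ADARB1, TMEM87B, RABGAP1, TUBB3 and IPMK, from 5.63 to 6.24 in JQ1, of which only ADARB1 and TUBB3 lay more than 2 (log2) above DMSO. Some unlabelled rises start from few reads (CDK8 had 6 at 0 h, which gives their 8 h value of 8192% of 0 h an interval of 3741% to 22415%).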

How the data were processed

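K562 cells were sequenced as QuantSeq 3′ libraries after thiouridine labelling, 1 library per condition. The deposited tables hold whole-number counts per gene, which the authors made for total and for labelled reads of human and fly genes. The submitters' processing notes name the builds hg38 (human) and dm6 (fly), bedtools, Trim Galore (0.6.5) and bcl2fastq (2.17.1.14); the aligner, the counter and the rule that makes a read labelled are not given in the sources used here. Unlabelled counts were taken as total minus labelled counts, which was 0 or more in every gene and library.

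Counts were divided by the fly read sum of their library. Fly RNA was added to purified RNA, so fewer cells and less RNA per cell cannot be told apart. Slopes over hours, with 1 common 0 h level and a slope for each of 3 arms (6 residual degrees of freedom), were fitted to 10 libraries with edgeR 4.0.16 (quasi-likelihood, R 4.3.3), and p-values were Benjamini-Hochberg adjusted over 8817 genes. The fit was also run on counts simulated from its own straight lines and spread. That run cannot check the straight line itself or the lack of replicates. Ratios used a pseudocount of 0.5. A fall or rise by class is at least 2-fold against both DMSO and 0 h; a ratio that comes from DMSO has a JQ1 change of less than 0.5 (log2) toward it. Alternatives were TMM, DESeq2 1.42.0 size factors and its Wald test, other filters, other arms and leaving out each library.

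Members and lists were chosen with earlier results of these data known. The text names the 10 largest called total falls and rises, 6 labelled and 6 unlabelled changes in each direction and 5 genes of each class; genes named as examples of a list, and others outside this rule, were picked after their values were seen. Some genes that the rule selects are not reported here. Promoters came from RefSeq (GRCh38.p14), matched by symbol for 6651 of the 8817 genes.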

Additional observations from a re-analysis of the deposited data

Results flagged for a closer look

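The slopes of JQ1 and DMSO, which share the 0 h library, were set against each other by a term for their difference (edgeR, adjusted p under 0.05), and genes that differed by it are given here. In total reads 1837 genes were lower and 149 higher in JQ1 than in DMSO. In labelled reads 31 were lower and 28 higher. In unlabelled reads 1441 were lower and 87 higher. Without the DMSO 8 h library the counts were 273 and 24 for total, 5 and 5 for labelled and 891 and 22 for unlabelled reads.

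Single genes named by class differed likewise. CBFA2T3 (-0.506 log2 per hour, JQ1 minus DMSO), HEMGN (-0.558), ICAM2 (-0.435) and ZMYND8 (-0.36) had lower slopes in JQ1. The histone genes H2AC11 (0.512) and H3C10 (0.328) had higher ones.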

How the results depend on the processing

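No pairing by replicate was possible because each condition has 1 library, so the conditions share a single replicate number. With the JQ1 and DMSO libraries blocked by time in place of slopes, chosen after seeing the data, edgeR called 2314 genes lower and 102 higher in total reads and 22 differences in labelled reads (2 residual degrees of freedom). In this fit the 3 times stood in for replicates. It used the fly scale, on which the median gene was at -0.318 (log2, JQ1 minus DMSO) in total reads, and was not run with TMM scaling. Of 1693 values for 86 gene slopes, 1559 kept their direction and side of the threshold, 118 lost the call, 11 gained one and 5 reversed: GNAS labelled (-0.098, fly component as covariate), ZMYND8 total (0.58, levels), and, without the JQ1 8 h library, FGF18, MYC and PIM1. Over the left-out libraries these 3 ranged from -0.2283 to 0.1087 (FGF18), -0.4295 to 0.1071 (MYC) and -0.2523 to 0.04372 (PIM1).

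With mean levels in place of slopes, edgeR called 0 genes lower or higher in total, labelled or unlabelled reads and 0 differences in label loss, against 334, 45 and 1370 genes at an unadjusted p under 0.05. The 0 h and JQ1 libraries alone gave 1087 lower total and 489 lower unlabelled slopes, and the fly component as a covariate, chosen after seeing the data, 948 and 364. Differences in label loss numbered 144 with TMM, 192 with DESeq2 size factors and 37 by the DESeq2 Wald test.

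Leaving out each library gave 553 to 1873 lower and 241 to 1758 higher total slopes, 4903 to 8219 lower labelled slopes, 39 to 797 lower and 548 to 4150 higher unlabelled slopes, 10 to 87 differences in label loss and a median half-life of 3.85 to 4.454 h. The lowest counts came without the JQ1 8 h library, and for label loss without the DMSO 8 h library.

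The 8 h classes are given as falls, rises in DMSO, rises and falls in DMSO. A mean labelled count of at least 50 gave 213, 268, 70 and 5, a mean total count of at least 1 gave 1935, 1798, 1285 and 697, means over 2, 4 and 8 h gave 84, 147, 35 and 4, and 1.5-fold thresholds gave 1015, 1244, 359 and 47. The last 3 classes numbered 138, 216 and 60 with TMM and 106, 238 and 70 with DESeq2 size factors, which put the JQ1 8 h median at 0.008867 (TMM) and 0.008668. With JQ1 2 h as baseline, chosen after seeing the data, falls in DMSO numbered 29. The cause of these shifts was not tested.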

Other observations

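Mitochondrially encoded RNAs kept the least label. At 8 h of JQ1 the labelled share was 0.157% for MT-ND3, 0.259% for MT-CYB and 0.535% for MT-ND1, against 4.80%, 10.2% and 23.6% at 0 h. The DMSO shares at 8 h were 0.185% for MT-CYB and 1.48% for MT-ND1. The median half-life of label over the 9 mitochondrial mRNAs measured was 1.60 h in JQ1 and 1.52 h in DMSO.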
